A study of Mus musculus with 9 samples.

Results

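The comparison described here sets DKO-labelled OT-II thymocytes against control OT-II thymocytes that matured in the same RIPmOVA hosts, in which the antigen of the OT-II T cell receptor is made as a self-antigen. It rests on 4 of the 9 libraries of the series, 2 of each donor genotype, and on the 11569 genes with an RPKM of 1 or more in at least 2 libraries, out of 24594 genes in the deposited table. RPKM is the read number of a gene scaled to its exon length and to the depth of the library. Both donors carried the OT-II transgene, a class II restricted receptor for ovalbumin. Control donors were Nr4a1+/+ Nr4a3+/+ and came from B6.Cg-Tg(TcraTcrb)425Cbn/J crossed to BoyJ (F1), whereas DKO donors were Nr4a1-/- Nr4a3-/- on C57BL/6, so that donor strain and congenic marker changed together with genotype and cannot be told apart from it. Hosts were irradiated mice with the transgene Tg(Ins2-TFRC/OVA)296Wehi/WehiJ on C57BL/6, crossed to BoyJ (F1), which express membrane-bound ovalbumin under the rat insulin promoter in pancreatic islets, kidney tubules and testis and in medullary thymic epithelium, which survives irradiation. They received DKO, control and non-transgenic wild-type marrow, and thymi were taken 4.7 weeks later. Each library was prepared from CD4+ CD8- CD69+ Valpha2+ VBeta5+ cells of 1 chimera, and libraries with the same replicate number came from the same mouse. The Nr4a alleles were germline, and the sex of the donors was not given. The other 5 libraries were sorted in the same way from hosts without ovalbumin, 2 of control OT-II and 3 of DKO-labelled cells. They were used to estimate the spread between replicates and for comparison. These hosts are given here as BoyJ, whereas the methods of the study describe its congenic WT mice as F1 progeny of RIP.mOVA and BoyJ mice. If they were BoyJ, host strain changed together with the antigen and cannot be told apart from it.

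Developing T cells whose receptor binds self-antigen in the thymic medulla are normally deleted, made unresponsive or diverted into the regulatory T cell lineage. The orphan nuclear receptors Nr4a1 (Nur77), Nr4a2 (Nurr1) and Nr4a3 (Nor1) are transcribed within a short time of T cell receptor signalling and act as transcription factors, and they can replace each other in part. The question of this comparison is which part of the transcriptional response to self-antigen differs in cells that lack Nr4a1 and Nr4a3. In bulk RNA, fewer cells that express a gene and less RNA per cell cannot be told apart.

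The targeted genes were examined first. Nr4a1 was at 260 and 229 RPKM in the control libraries of RIPmOVA hosts and at 282 and 235 RPKM in the DKO-labelled libraries. Nr4a1 therefore overlapped between the groups, with a log2 difference of 0.08 and a 95% interval from -0.39 to 0.54. Under median-of-ratios rescaling that difference was -0.16. Nr4a3 was at 5.66 and 3.72 RPKM in control and at 16.5 and 14.1 RPKM in DKO-labelled libraries. It rose with a log2 difference of 1.63 ± 0.28 (SE) and an adjusted p of 0.024 in limma. With reads on sensory receptor genes as a covariate, described below, its difference was 1.09 with an adjusted p of 0.38. Nr4a2, which was not targeted, was at 6.54 and 3.92 against 17.4 and 7.73 RPKM (log2 difference 1.12 ± 0.36, adjusted p = 0.13). Values summed over all exons of a gene do not show whether its product is made. The transcript levels thus did not check the genotype labels, and the libraries are called DKO-labelled here.

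The 4 libraries held between 16490000 and 24210000 reads, and replicate libraries correlated at 0.9791 in each genotype (Pearson's r across the genes tested, which are not independent replicates). Reads on olfactory and vomeronasal receptor genes, which thymocytes have no known use for, were at 548.0 and 292.2 RPM (reads scaled to library depth alone) in control and 1032.5 and 1470.7 in DKO-labelled libraries. In WT hosts they ranged from 412.0 to 1126.9 RPM, and the genotypes overlapped. Summed T cell markers (Cd3d, Cd3e, Cd3g, Cd247, Cd5 and Lck) were at 1370 to 1460 RPKM in control and 1290 to 1370 RPKM in DKO-labelled libraries, and Cd4 was at 201 and 221 against 189 and 211 RPKM. Most markers of other lineages were low, but Cd8b1, Dntt and Pecam1 were not, and none was at 0 in all libraries. Macrophage markers (6 genes) summed to 12.8 to 25.8 RPKM in control, mostly from Lyz2, and to 4.43 to 6.17 RPKM in DKO-labelled libraries, and 4 regulatory T cell markers to 24.4 to 28.6 against 9.42 to 13.0 RPKM. The sum of the 3 NK cell markers was 1.75 to 3.3 against 1.6 to 1.7 RPKM, with Klrd1 lower and Ncr1 and Klrb1c higher in DKO-labelled libraries. Higher in DKO-labelled libraries were the sums for dendritic cells (1.13 to 1.18 against 2.63 to 3.39 RPKM), thymic epithelium (4.92 to 7.01 against 7.6 to 11.4 RPKM) and endothelium (30.6 to 35.5 against 46.6 to 54.7 RPKM, nearly all from Pecam1, which T cells also express). The epithelial sum came mostly from Epcam, at 6.24 and 4.66 against 10.2 and 5.78 RPKM, which overlapped between genotypes. The sums for B cells, erythroid cells, CD8 T cells and double-positive thymocytes overlapped between genotypes. That for CD8 T cells was 64.0 to 82.6 against 72.5 to 95.0 RPKM, mostly from Cd8b1. For double-positive thymocytes it was 21.4 to 34.2 against 20.7 to 28.3 RPKM, mostly from Dntt.

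Of the 11569 genes, 124 passed an adjusted p of 0.05 with at least a 2-fold difference (limma on log2(RPKM + 0.5), Benjamini-Hochberg adjustment). Transcripts of 65 genes (0.562% of those tested) were lower in DKO-labelled cells and 59 (0.510%) were higher, while the median log2 difference of all genes was 0.04. Each of the 124 genes had libraries that did not overlap between genotypes, but so did 59.0% of all genes tested, so that this alone sets no gene apart. The lower genes were mostly moderately expressed, with a median of 10.3 RPKM in control and 1.78 RPKM in DKO-labelled cells, and 61 of them were protein coding. The higher genes had a median of 2.56 RPKM in control and 7.45 RPKM in DKO-labelled cells, and 9 of the 59 rested on no more than 60 reads in any of the 4 libraries, among them 4 microRNA genes. The number of lower genes depended on the scaling. Median-of-ratios rescaling, which moved the median of all genes to -0.17, gave 65 higher and 149 lower genes, and quantile normalization gave 64 and 137. With the chimera as a block, 97 genes were called, of which 79 were among the 124. Single libraries also set the number, which was 21 without control replicate 1 of RIPmOVA hosts, 51 without control replicate 2, 71 without DKO-labelled replicate 2, and 211 and 217 without control replicates 1 and 2 of WT hosts.

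**Figure D1:**
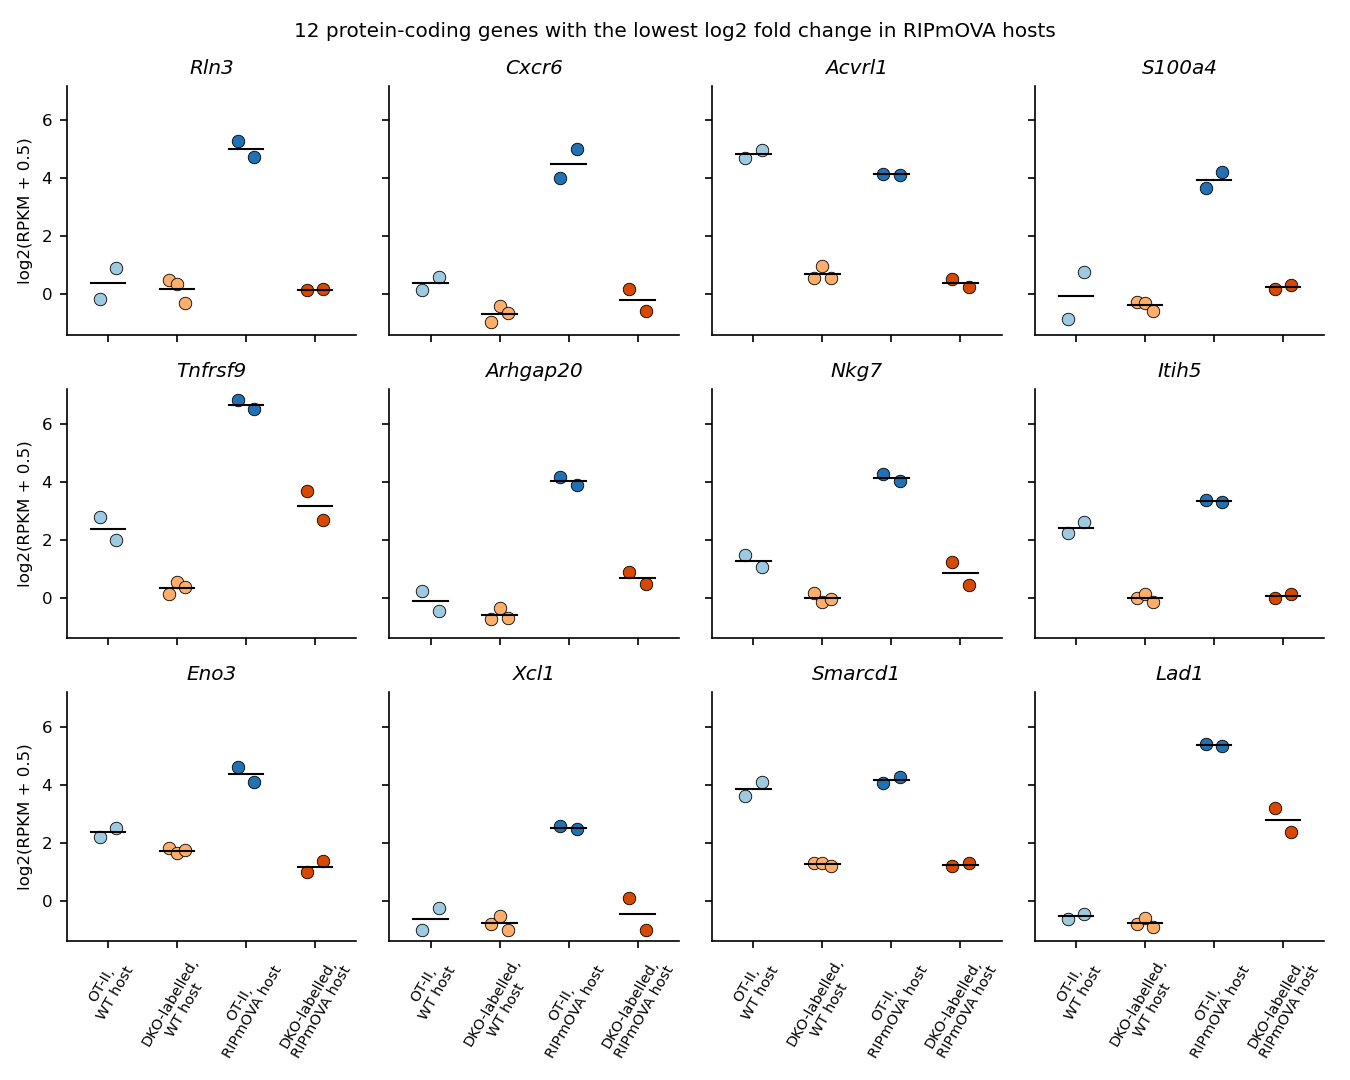
Expression of the 12 protein-coding genes with the lowest log2 fold change in RIPmOVA hosts, as log2(RPKM + 0.5) on the y axis, for every library (points) and the mean (bar) of the 4 groups. In each panel the 2 control RIPmOVA libraries lie above the 2 DKO-labelled ones. Acvrl1, Itih5 and Smarcd1 are also called lower in DKO-labelled cells of WT hosts. Tnfrsf9, Nkg7, Cxcr6 and Eno3 are lower there without overlap but were not called (log2 differences -2.03, -1.28, -1.04 and -0.64).

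The gene with the largest difference was Rln3, which encodes the secreted peptide relaxin-3, known as a neuropeptide. Its transcript was at 38.3 and 26.5 RPKM in control libraries (401 and 407 reads) and at 0.617 and 0.632 RPKM in DKO-labelled libraries (8 and 7 reads). The control mean was 51.9 times the DKO-labelled mean, with a log2 difference of -4.85 ± 0.37 and an adjusted p of 0.00064. In WT hosts, Rln3 lay between 0.315 and 1.37 RPKM in all 5 libraries. The level in DKO-labelled cells of RIPmOVA hosts was thus within the range seen without antigen. Rln3 lies on chromosome 8 (84043067 to 84044979, minus strand, mm10).

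NR4A proteins can bind DNA as monomers at the octamer AAAGGTCA. Its letters were searched on both strands in RefSeq promoters (GRCm38.p6), each from 250 bases before to 50 bases after a transcription start. A promoter was listed for 48 of the 65 lower genes, 43 of the 59 higher genes and 9073 of the genes tested. The octamer was present for 1 lower gene (2.08%), for 0 higher genes and for 120 of all genes (1.32%), and 1 gene is too few to compare these shares. The 1 lower gene was Rln3, whose promoter (chr8:84044930-84045229, minus strand) is shown because it is the only one of a called gene with the match, in capitals at position -117 from the start.

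Rln3: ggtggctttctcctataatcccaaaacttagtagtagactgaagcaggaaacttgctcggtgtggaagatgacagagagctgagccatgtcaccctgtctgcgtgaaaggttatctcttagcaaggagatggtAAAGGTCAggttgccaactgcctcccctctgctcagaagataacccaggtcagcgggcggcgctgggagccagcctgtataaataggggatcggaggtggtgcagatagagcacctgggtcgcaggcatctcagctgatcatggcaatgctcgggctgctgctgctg

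A match of letters is no evidence of binding, and genes without it may hold sites elsewhere.

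Cxcr6, the receptor for Cxcl16, was at 15.6 and 31.7 RPKM in control and 0.642 and 0.166 RPKM in DKO-labelled libraries (log2 difference -4.71 ± 0.40, adjusted p = 0.00088). The spread between the control replicates was therefore about 2-fold, far less than the difference between genotypes. Tnfrsf9 (4-1BB), a costimulatory receptor induced by T cell receptor signalling, had the highest level of the named lower genes, with 111 and 90.5 RPKM in control and 12.2 and 5.84 RPKM in DKO-labelled cells (log2 difference -3.49 ± 0.34, adjusted p = 0.0019). It was at 6.28 and 3.46 RPKM in control and below 1 RPKM in DKO-labelled cells of WT hosts. Tnfrsf9 in DKO-labelled cells of RIPmOVA hosts was hence nearer to control cells without antigen than to control cells with it. Xcl1, the chemokine lymphotactin, fell from 5.45 and 4.97 RPKM to 0.56 and 0 RPKM (6 and 0 reads; log2 difference -2.97 ± 0.45, adjusted p = 0.014). With the chimera as a block the adjusted p of Xcl1 was 0.063. Itgae, the alpha chain of the integrin CD103 that binds E-cadherin, was at 7.28 and 13.8 RPKM in control and 1.46 and 1.44 RPKM in DKO-labelled libraries (log2 difference -2.43 ± 0.33).

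Nkg7, a granule membrane protein of cytotoxic lymphocytes, fell from 18.6 and 15.6 RPKM to 1.86 and 0.859 RPKM, a log2 difference of -3.29 ± 0.27. S100a4, a calcium-binding protein of effector and memory T cells, fell from 12.3 and 18.0 RPKM to 0.652 and 0.764 RPKM (log2 difference -3.67 ± 0.45). Part of S100a4 shares exon sequence with the gene model Gm42674 on the same strand. In WT hosts Nkg7 was at no more than 2.25 RPKM and S100a4 at no more than 1.2 RPKM. Of the NK cell markers, Klrd1 was at 1.48 and 3.0 against 0.316 and 0.082 RPKM and Ncr1 at 0.114 and 0.182 against 1.04 and 1.23 RPKM, and neither passed the test. Their log2 differences were -1.93 for Klrd1 and 1.34 for Ncr1. With the covariate for sensory receptor reads, described below, they were -1.52 and 0.15. The part of cells with these markers in the levels of Nkg7 was not tested.

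Eno3 (beta-enolase, the muscle form of a glycolytic enzyme) fell from 23.9 and 16.7 to 1.48 and 2.08 RPKM (log2 difference -3.18 ± 0.20, adjusted p = 0.00019). It was the only one of 18 glycolysis genes tested that was called, and the median of that list was -0.11. Chchd10, a protein of the mitochondrial intermembrane space, fell from 12.6 and 10.9 to 2.13 and 1.5 RPKM (log2 difference -2.41 ± 0.21). Of 87 nuclear genes of the respiratory chain and ATP synthase, 0 passed the test (median -0.08). Arhgap20, a GTPase-activating protein, fell from 17.5 and 14.3 to 1.35 and 0.868 RPKM, and Lad1 (ladinin, an anchoring filament protein) from 42.1 and 39.4 to 8.64 and 4.61 RPKM. Lad1 was at no more than 0.231 RPKM in WT hosts, so its level in DKO-labelled cells of RIPmOVA hosts lay above that without antigen. The levels of Rln3 and S100a4 there were instead within the range of WT hosts.

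Acvrl1, Itih5, Smarcd1 and Bcl2l11 were called between genotypes in WT hosts as well. Acvrl1 (ALK1), a type I receptor for BMP9 and BMP10 in the TGF-beta family, was at 17.5 and 17.0 against 0.961 and 0.696 RPKM in RIPmOVA hosts, a log2 difference of -3.75 ± 0.18 (adjusted p = 6.7e-05). Its 3 DKO-labelled libraries from WT hosts were at 0.984, 1.48 and 0.996 RPKM and the 2 control ones at 25.7 and 31.3 RPKM. Itih5, which stabilises hyaluronan in the extracellular matrix, was at 9.75 and 9.4 against 0.482 and 0.587 RPKM. Smarcd1 (BAF60A), a subunit of SWI/SNF chromatin remodelling complexes, was at 16.3 and 18.6 against 1.79 and 1.93 RPKM. The spread within each of these groups was small beside the difference. On chromosome 15, which holds Nr4a1, the distance from that gene is 0.11 Mb for Acvrl1 and 1.54 Mb for Smarcd1, and at 4.01 Mb the adhesion gene Amigo2 was higher (3.33 and 4.07 against 9.12 and 15.98 RPKM). In all, 3 of 98 tested genes (3.06%) within 5 Mb of Nr4a1 were called, against 1.07% of all genes tested. Around Nr4a3 it was 2 of 59 or 3.39% (Nr4a3 itself and Olfr273, the latter on at most 64 reads), and around Ptprc, which carries the congenic marker CD45, it was 2 of 41 or 4.88% (Lad1 and 4930596I21Rik, the latter on at most 26 reads). Olfr273 and 4930596I21Rik had adjusted p of 0.12 and 0.11 with the chimera as a block. Ptprc itself was at 167 and 174 against 157 and 149 RPKM and did not pass the test. Whether linked donor sequence plays a part in these differences was not tested.

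Few genes of the BCL2 family were called. Bcl2l11 (BIM), which promotes mitochondrial apoptosis, was at 34.6 and 31.7 RPKM in control and 7.93 and 5.51 RPKM in DKO-labelled libraries, a log2 difference of -2.24 ± 0.19 (adjusted p = 0.00088). It was the only one of 5 tested pro-apoptotic BCL2 family genes that was called, while 1.07% of all genes tested were. None of 6 tested pro-survival members was called. Bcl2 at 36.8 and 42.9 against 19.8 and 21.9 RPKM had an adjusted p of 0.012 but missed the fold limit with a log2 difference of -0.91.

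Among 13 regulatory T cell genes tested, 4 were lower, against 0.562% of all genes, and 0 were higher. The median log2 difference of the list was -0.59, against 0.04 over all genes. The study named Foxp3, Ikzf4, Lrrc32 and Ahr as Nr4a-dependent from these same libraries, so that the count and median are not independent evidence. Foxp3, which defines the lineage, was at 1.9 and 3.31 RPKM in control and 0.092 and 0.077 RPKM in DKO-labelled libraries (log2 difference -2.37 ± 0.40, adjusted p = 0.02). Lrrc32 (GARP), the surface anchor of latent TGF-beta, fell from 3.46 and 3.63 to 0.711 and 0.622 RPKM. Ahr, the aryl hydrocarbon receptor, fell from 6.69 and 9.46 to 2.08 and 1.18 RPKM, and Itgae is given above. Foxp3 and Lrrc32 each had an adjusted p of 0.12 with the chimera as a block, which left 2 of the 4 genes. The control levels of Foxp3 were low, and the gene shares exon sequence with Flicr on the same strand. Other genes of the list did not pass the test. Izumo1r was at 46.0 and 47.9 against 58.4 and 55.9 RPKM and Capg at 21.0 and 24.6 against 29.1 and 20.4 RPKM. Il2ra (CD25) was at 12.3 and 13.6 against 8.48 and 5.26 RPKM and Ikzf2 (Helios) at 19.6 and 14.5 against 14.9 and 8.23 RPKM. Ikzf4, a further marker in the sum above, was at 6.77 and 8.07 against 3.76 and 3.47 RPKM. It had an adjusted p of 0.029 in limma (0.086 with the chimera as a block) but missed the fold limit with a log2 difference of -0.94. The lower sum of regulatory T cell markers given above includes Foxp3 and Lrrc32, and the part of a changed share of such cells was not tested.

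Few genes were called in the lists of TGF-beta family, cytokine and costimulatory receptors, and the others were not shown to be unchanged. Uncalled members past the fold limit were Tnfsf14, Il1r2, Tnfrsf25 and Bmpr1a. Their log2 differences were 1.55, 1.26, 1.15 and 1.05, and no uncalled member was past the limit in the lower direction. Beside Acvrl1, the co-receptor Tgfbr3 (betaglycan) fell from 23.9 and 24.6 to 8.51 and 12.3 RPKM (log2 difference -1.20 ± 0.18, adjusted p = 0.012), whereas the signalling receptors Tgfbr1 and Tgfbr2 had log2 differences of 0.39 and -0.02. The median over 16 genes of that list was 0. Of 17 cytokine receptor and SOCS genes only Il6ra was called, at 1.13 and 1.8 against 3.78 and 5.86 RPKM (log2 difference 1.43 ± 0.25). Of 17 costimulatory receptors and TNF ligands, Tnfrsf9 fell and Tnfsf8 (the ligand of CD30) rose from 8.47 and 10.96 to 40.8 and 21.8 RPKM (log2 difference 1.58 ± 0.31, adjusted p = 0.038, and 0.06 with the chimera as a block). Cd28 and Cd40lg had an adjusted p of 0.03 and 0.048 but log2 differences of -0.44 and -0.76, and with the chimera as a block that of Cd28 was 0.059.

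**Figure D2:**
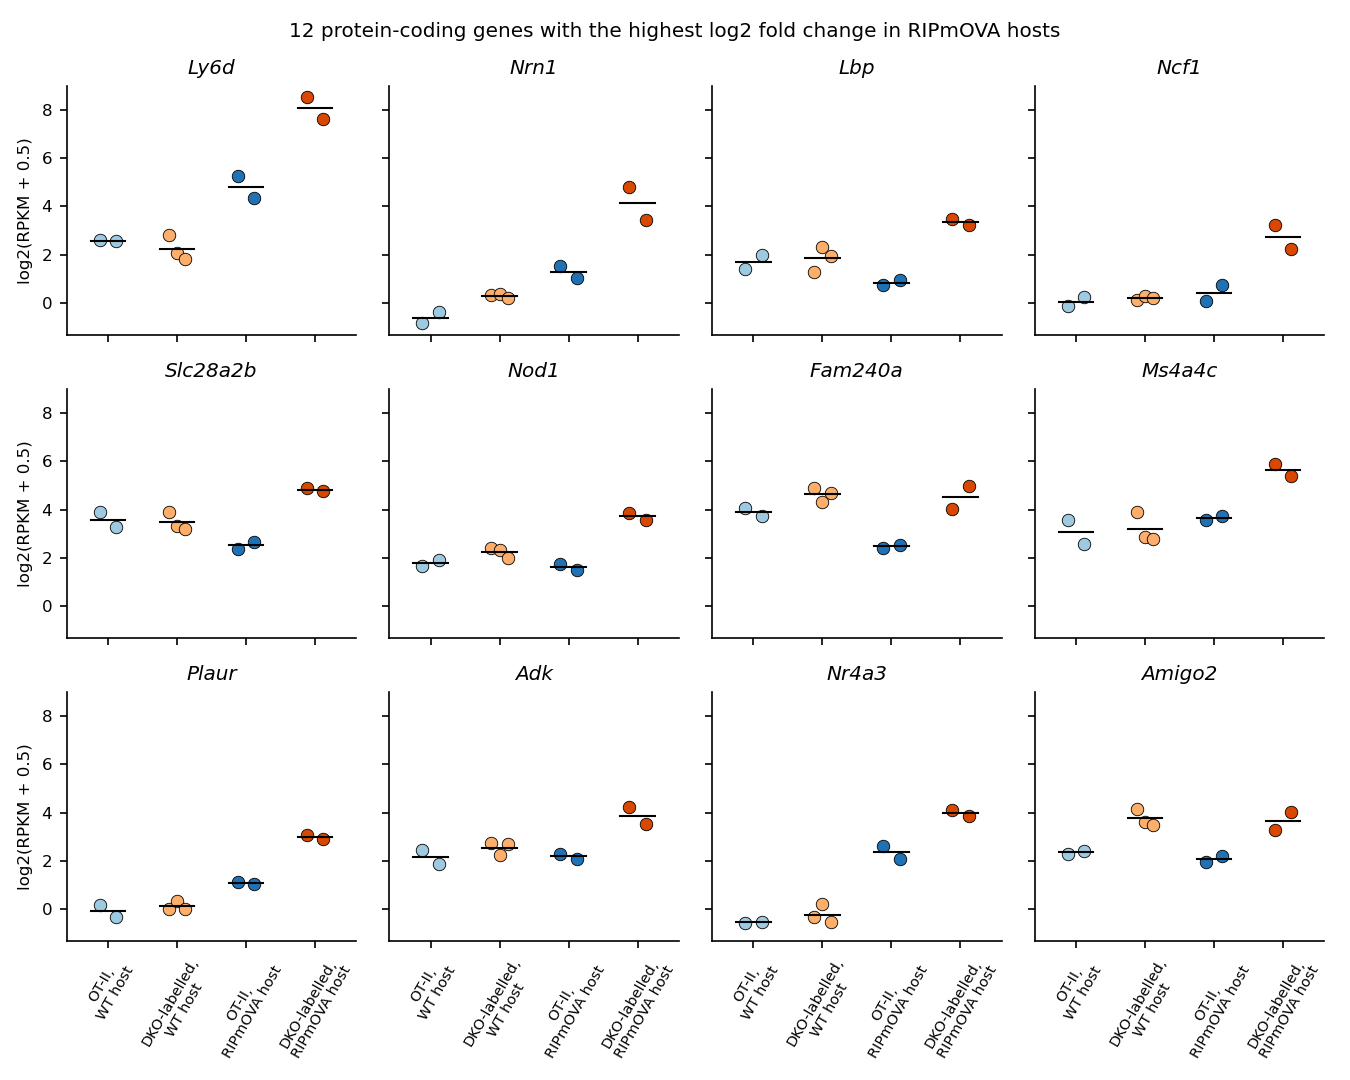
Expression of the 12 protein-coding genes with the highest log2 fold change in RIPmOVA hosts, as log2(RPKM + 0.5) on the y axis, for every library (points) and the mean (bar) of the 4 groups. In each panel the 2 DKO-labelled RIPmOVA libraries lie above the 2 control ones; Ly6d and Nrn1 show the largest gaps.

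The largest increase among higher protein-coding genes was that of Ly6d, a GPI-anchored surface protein of the Ly6 family. It was at 37.6 and 19.7 RPKM in control and at 365 and 197 RPKM in DKO-labelled libraries, and at 3.0 to 6.61 RPKM in WT hosts. The mean was 9.82 times higher in DKO-labelled cells, with a log2 difference of 3.28 ± 0.40 and an adjusted p of 0.0061. With the covariate for sensory receptor reads, the difference of Ly6d was 3.16 with an adjusted p of 0.15. The antigen-exposed control cells thus lay between the cells of WT hosts and the DKO-labelled cells of RIPmOVA hosts. Ly6d was the only one of 7 Ly6 genes tested that was called. The members Ly6a (23.6 and 32.7 against 78.5 and 52.3 RPKM) and Ly6k (39.1 and 49.1 against 12.1 and 3.41 RPKM) did not pass the test. Their log2 differences were 1.19 and -2.65. Nrn1 (neuritin), a GPI-anchored protein first known from neurons, was at 2.42 and 1.57 against 27.5 and 10.3 RPKM (log2 difference 2.82 ± 0.40, adjusted p = 0.011). The DKO-labelled replicates of Nrn1 differed more from each other than the control ones did, and with the covariate its adjusted p was 0.16. Plaur, the urokinase receptor, is likewise GPI anchored and rose from 1.69 and 1.54 to 7.8 and 7.1 RPKM.

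Nod1, a cytosolic receptor for bacterial peptidoglycan, rose from 2.85 and 2.33 to 13.9 and 11.5 RPKM with a log2 difference of 2.09 ± 0.18 and an adjusted p of 0.00088. Lbp, the lipopolysaccharide-binding protein, rose from 1.16 and 1.43 to 10.8 and 8.95 RPKM (adjusted p = 0.0066). Ncf1, the p47phox subunit of the NADPH oxidase, was at 0.549 and 1.18 against 8.94 and 4.29 RPKM (adjusted p = 0.014, and 0.069 with the chimera as a block). For Nod1 and Lbp the replicates of a genotype lay close together. With the covariate for sensory receptor reads their adjusted p were 0.059 and 0.15. Lbp in control cells of RIPmOVA hosts was below its range of 1.94 to 4.5 RPKM in WT hosts, whereas Ncf1 was not. Ms4a4c, a membrane protein with near paralogues in the table, was at 11.5 and 12.9 against 58.2 and 41.0 RPKM (adjusted p = 0.045).

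Slc28a2b, a nucleoside transporter gene with a close paralogue, rose from 4.72 and 5.75 to 29.0 and 26.6 RPKM, and Adk, the kinase that phosphorylates adenosine, from 4.45 and 3.78 to 18.1 and 11.01 RPKM. The log2 differences were 2.31 ± 0.26 and 1.67 ± 0.27. Slc28a2b was at 8.53 to 14.6 RPKM in WT hosts, so control cells with antigen were below and DKO-labelled cells above that range. Fam240a was at 12.9 to 29.5 RPKM in WT hosts, 4.86 and 5.3 RPKM in control and 15.6 and 31.3 RPKM in DKO-labelled libraries of RIPmOVA hosts (log2 difference 2.02 ± 0.29). Control cells with antigen were the low group for this gene.

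S1pr1, the receptor by which mature thymocytes follow sphingosine-1-phosphate out of the thymus, rose from 42.0 and 43.2 to 95.3 and 110 RPKM (log2 difference 1.26 ± 0.12, adjusted p = 0.002). The chemoattractant receptor Gpr183 (EBI2) fell from 59.8 and 59.9 to 31.2 and 28.0 RPKM, with a log2 difference of -1.01 ± 0.20. With Cxcr6, these made 3 of 20 migration and egress genes called (15.0%, against 1.07% of all genes), while 10 members had a positive and 10 a negative difference and the list median was -0.05. Klf2, which drives S1pr1 transcription, was at 77.0 and 82.0 against 113 and 116 RPKM and did not pass the test (adjusted p = 0.084). Nfatc1, a calcium-regulated transcription factor, was at 30.1 and 30.5 against 80.0 and 55.5 RPKM (log2 difference 1.12 ± 0.15, adjusted p = 0.0084) and was the only one of 16 calcium and NFAT genes that was called. Lgals1, the secreted lectin galectin-1, rose from 69.4 and 62.4 to 173 and 135 RPKM (log2 difference 1.21 ± 0.18) and was the only one called of 6 galectin genes tested.

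**Figure D3:**
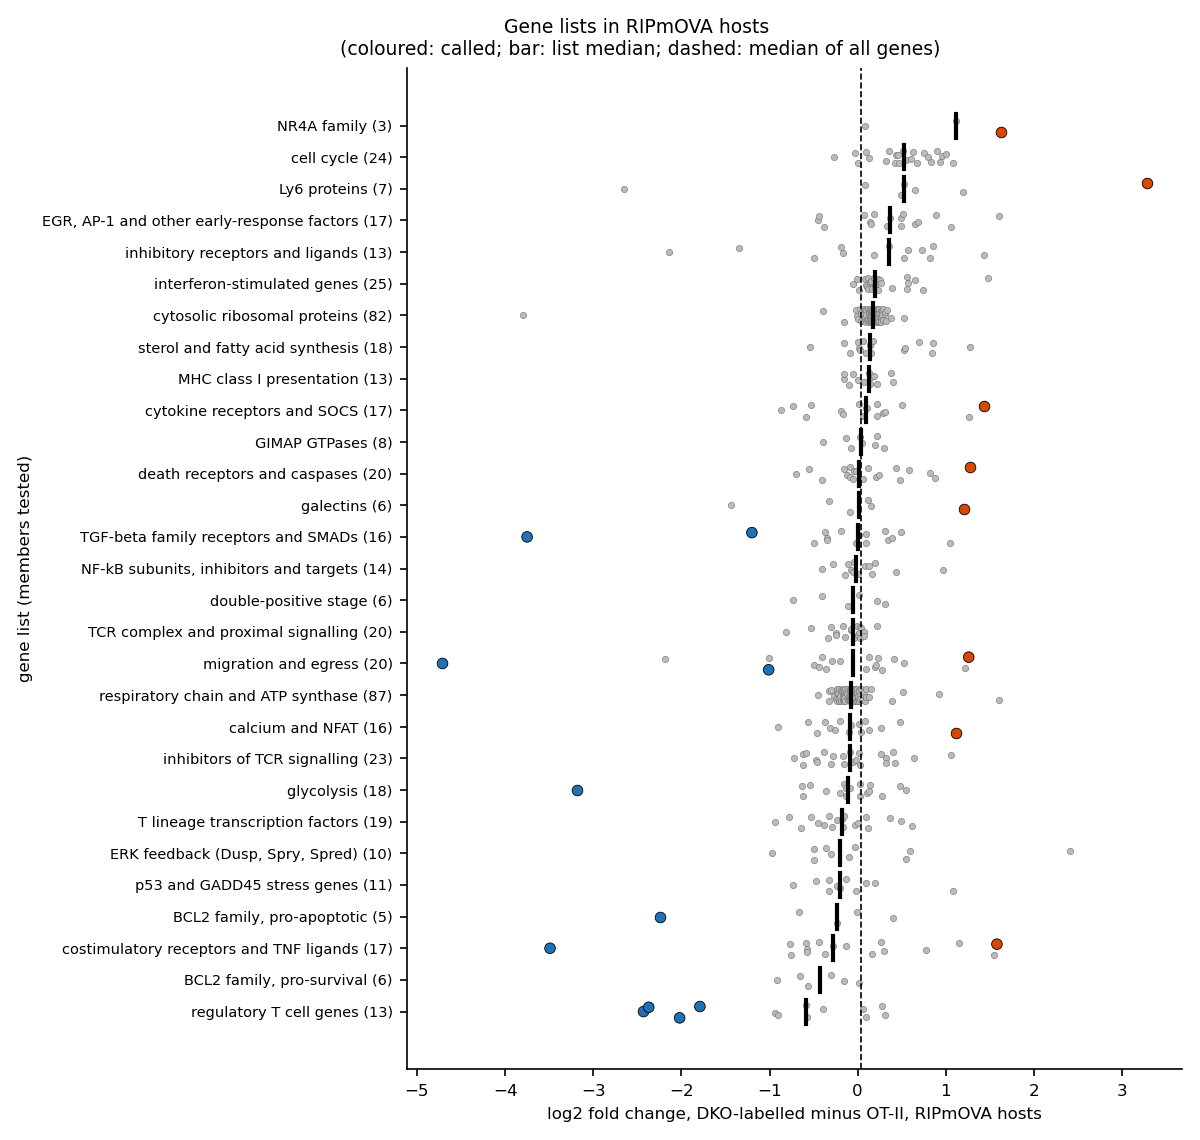
Log2 fold change of DKO-labelled against control OT-II cells in RIPmOVA hosts (x axis) for the tested members of 29 gene lists (y axis, number tested in brackets). Coloured points passed the test (blue lower, orange higher), bars are list medians and the dashed line is the median of all genes, 0.04. Regulatory T cell genes have the lowest list median, -0.59, in a list that holds genes the study named from these same libraries.

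Most lists of signalling, metabolic and housekeeping genes held no called member, and only 1.07% of all genes tested were called. In lists of these sizes, 0 calls therefore does not set their genes apart from other genes. Of 17 early-response factors 0 passed the test, although Bhlhe40 and Fos were past the fold limit with log2 differences of 1.6 and 1.06. Egr1 was at 70.7 and 90.5 against 83.4 and 95.2 RPKM, Fos at 7.2 and 10.1 against 19.9 and 16.9 RPKM, and the list median was 0.37. No gene passed either among 20 genes of the T cell receptor complex and proximal signalling (median -0.05), 14 NF-kB genes (-0.02) and 13 genes of class I presentation (0.13). Nor did any of 8 GIMAP genes (0.04), 11 p53 and GADD45 genes (-0.20), 6 double-positive stage genes (-0.05) and 18 genes of lipid synthesis (0.14). No gene was called among 25 interferon-stimulated genes (median 0.20), 24 cell cycle genes (0.53) and 82 cytosolic ribosomal protein genes (0.17), although 23, 21 and 76 of them had a positive difference against 6529 of all 11569. Of 13 inhibitory receptors and ligands 0 passed: Pdcd1 (PD-1) was at 49.1 and 43.4 against 51.5 and 31.7 RPKM, Lag3 at 1.09 and 0.497 against 4.02 and 2.06 RPKM, and Tigit at 2.84 and 6.65 against 1.01 and 0.311 RPKM. Their medians do not show that these genes were alike in both genotypes.

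Some regulators passed the adjusted p but not the fold limit. Dusp10, a phosphatase of JNK and p38, was at 94.8 and 89.0 against 44.8 and 48.4 RPKM (log2 difference -0.97, adjusted p = 0.00088). None of 10 ERK feedback genes was called in the main fit. Spry1 of that list was past the fold limit with a log2 difference of 2.41 but did not pass the adjusted p. In the T lineage factors, with 0 of 19 called, Id2 had a log2 difference of -0.94 and Id3 one of 0.49, with adjusted p of 0.028 and 0.036 (0.056 for Id3 with the chimera as a block). Id2 and Id3 encode inhibitors of E proteins, and their libraries did not overlap between genotypes, in opposite directions. Among 23 inhibitors of T cell receptor signalling, with 0 called, Cd6 (-0.62) and Dok2 (-0.59) passed the adjusted p, while Cd5 at 198 and 176 against 131 and 96.4 RPKM did not (adjusted p = 0.054).

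The study named 3 sets of genes from these same libraries, so that their counts are not independent evidence. Of 13 genes it gave as lower in DKO cells 12 were called lower, of 13 given as higher 2 were called higher (Lgals1 among them) while all 13 had a positive difference with a median of 0.88, and of 7 given as alike 0 were called. Of the Y-linked genes Ddx3y, Eif2s3y, Kdm5d and Uty, 0 were called.

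As a contrast, genes were taken that were called between hosts in control cells and had the log2 genotype difference nearest 0. Il2rb, the beta chain of the receptors for interleukin-2 and interleukin-15, was at 27.9 and 38.1 against 42.1 and 27.6 RPKM in RIPmOVA hosts and at 4.59 to 12.5 RPKM in WT hosts. Tbx21 (T-bet) was at 5.92 and 4.85 against 7.44 and 4.0 RPKM, and at no more than 0.259 RPKM in WT hosts. The 95% intervals of the genotype difference ran from -0.81 to 0.94 for Il2rb and from -0.70 to 0.75 for Tbx21 on the log2 scale. Narrower ones were found for the tetraspanin Cd82 (-0.31 to 0.38), the prion protein gene Prnp (-0.36 to 0.32) and Lpar5, a receptor for lysophosphatidic acid that was lower with antigen (-0.33 to 0.47). All 5 lay within a 2-fold difference in either direction. Hopx was at 8.91 and 12.02 against 18.2 and 5.97 RPKM, with an interval from -1.09 to 1.13 that did not. These genes were selected for a small difference, and the sign of each changed under at least 1 alternative scaling or covariate.

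**Figure D4:**
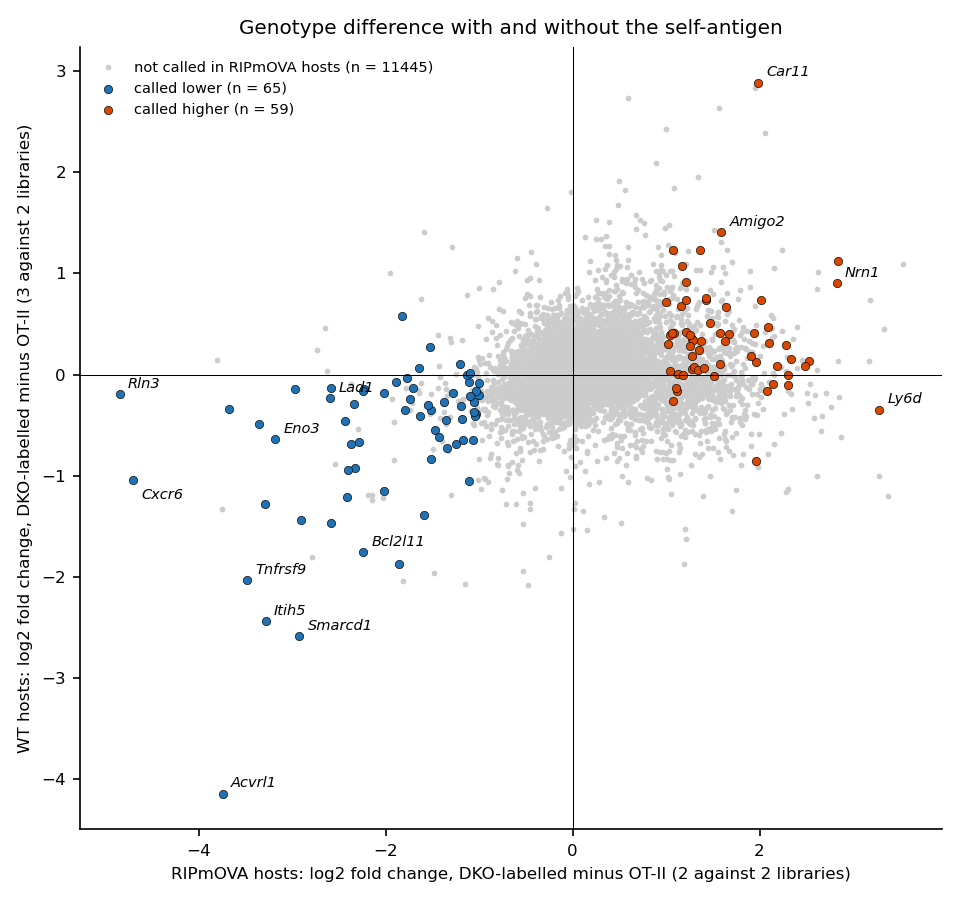
Log2 fold change of DKO-labelled against control OT-II cells in RIPmOVA hosts (x axis) and in WT hosts (y axis) for each of the 11569 genes; the axes share no library. Of the 65 lower genes (blue) 60 lie below 0 on the y axis, and of the 59 higher genes (orange) 48 lie above 0, mostly at smaller values.

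The libraries of WT hosts share no sample with this comparison. In them only 7 genes (0.0605%) were called, and 2 with the chimera as a block. The 5 that overlapped with the 124 were Acvrl1, Smarcd1, Itih5, Bcl2l11 and, among higher genes, Car11 (carbonic anhydrase-related protein 11, named after its values were seen), which was at 0.2 and 0.096 against 1.92 and 2.18 RPKM in RIPmOVA hosts and 0.064 and 0.143 against 3.13 to 5.71 RPKM in WT hosts. With the chimera as a block the adjusted p of Car11 in RIPmOVA hosts was 0.06. Of the 65 lower genes, 60 (92.3%) also had a negative difference in WT hosts, as did 48.7% of all genes. Of the 59 higher genes, 48 (81.4%) had a positive one, as did 51.3% of all genes. The sizes differed. The median log2 difference of the lower genes was -1.74 in RIPmOVA and -0.38 in WT hosts, and that of the higher genes was 1.42 and 0.31. Because the genes were chosen by their values in RIPmOVA hosts, a smaller value elsewhere is built into the choice.

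A difference between hosts was therefore taken only from the interaction term. It was called for 2 genes (0.0173%), Rln3 and Eno3, and for 0 with the chimera as a block, and it moved from 0 to 159 genes on leaving out single libraries (159 without control replicate 2 of WT hosts). The log2 interaction was -4.65 ± 0.50 for Rln3 and -2.55 ± 0.27 for Eno3, each with an adjusted p of 0.036. For the other named genes it was not shown that the genotype difference depended on the antigen. The interaction of Ly6d, for example, was 3.62 with an adjusted p of 0.091, and that of Cxcr6 was -3.67 with the same adjusted p. For Acvrl1, Smarcd1 and Bcl2l11 it was 0.39, -0.34 and -0.48 with adjusted p of 0.59, 0.60 and 0.55.

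The response of each genotype to the host was compared on the same genes. These values share the libraries of RIPmOVA hosts with the genotype difference and are given side by side only. The median log2 difference of RIPmOVA against WT hosts over the 65 lower genes was 1.29 in control and 0.07 in DKO-labelled cells. Over the 59 higher genes it was -0.20 in control and 0.93 in DKO-labelled cells. Single genes departed from these medians: Lad1 was higher with antigen in both genotypes (log2 5.91 and 3.54), as were Tnfrsf9 (4.28 and 2.82) and Bcl2l11 (2.25 and 1.76).

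**Figure D5:**
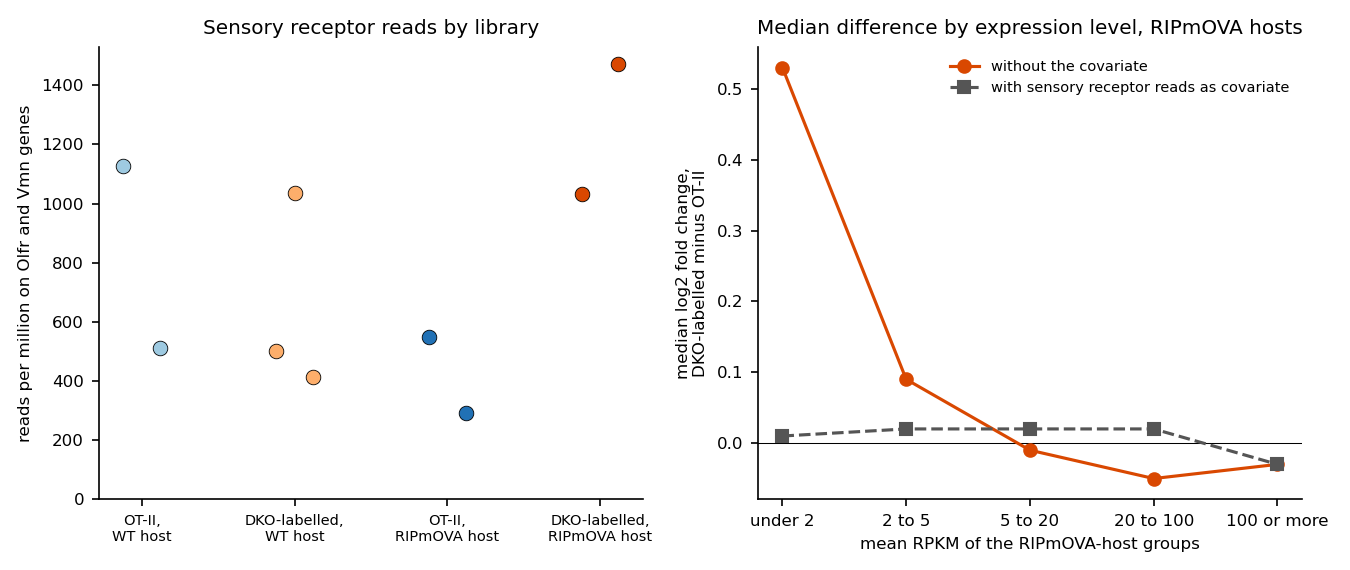
Left, RPM summed over olfactory and vomeronasal receptor genes (y axis) in each library of the 4 groups (x axis); the 2 DKO-labelled RIPmOVA libraries are at 1032.5 and 1470.7 and the 2 control ones at 548.0 and 292.2. Right, median log2 fold change in RIPmOVA hosts (y axis) for genes binned by mean RPKM (x axis), without and with the log2 of these reads as a covariate; the median of the lowest bin is 0.53 without it and 0.01 with it.

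The sensory receptor reads moved with genotype in RIPmOVA hosts, and genes of low expression moved with them. Among 2657 genes with a mean under 2 RPKM, 79.9% had a positive difference with a median of 0.53, whereas among 4293 genes from 5 to 20 RPKM 47.4% did, with a median of -0.01. With the log2 of the sensory reads as a covariate, estimated over all 9 libraries, these medians were 0.01 and 0.02, and 18 genes were called, 17 lower and 1 higher. The genes that remained of the 124 were 15 lower genes, among them Rln3, Cxcr6, Acvrl1, Tnfrsf9, Arhgap20, Nkg7, Itih5, Eno3, Smarcd1 and Bcl2l11, and the higher gene Lgals1. Dusp10 and the macrophage marker Lyz2 were called lower only with the covariate. The log2 difference of Lyz2 was -3.98 (limma, adjusted p = 0.011) with it and -2.15 (adjusted p = 0.098) without it. All 65 lower and all 59 higher genes kept their sign, with medians of -1.71 and 1.29, which changed less than the number of calls. The covariate separates the 2 genotypes in RIPmOVA hosts, so that this fit leaves less information on the genotype difference, and the part of background reads in the other calls was not tested. The macrophage markers given above also moved with genotype, as did the sums for NK cells, dendritic cells, epithelium and endothelium, and their part in the called genes was not tested.

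Exons of 17 lower and 13 higher genes overlap another gene in the annotation, which was 24.2% of the called and 33.6% of the tested genes. How strand was counted was not given in the sources used here, so that reads of Acvrl1, Smarcd1, Arhgap20, Nrn1 or Amigo2 could not be separated from those of a gene on the other strand.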

How the data were processed

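RNA of sorted thymocytes (2000 cell equivalents per library) had been amplified with SMART-seq v4, made into Nextera XT libraries and sequenced as 100-base pairs. Alignment by the authors used STAR with the mm10 build and GENCODE vM17. They took out duplicates with Picard, summed exon reads per Entrez gene with GenomicRanges in R v3.5.2 and deposited RPKM. The versions of STAR and Picard, and strand, were not given in the sources used here. RPKM is relative to the reads of each library, so that changes in abundant genes can shift the others.

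Deposited RPKM were tested on log2(RPKM + 0.5) with limma 3.58.1 (R 4.3.3; intensity trend, group means of all 9 libraries, 2-sided, Benjamini-Hochberg over 11569 genes). Calls needed an adjusted p no higher than 0.05 together with a log2 difference of 1 or more in size, and fold changes of low genes are understated on this scale. Replicates of a group came from separate chimeras, but 2 libraries per group leave a coarse estimate of spread. Read numbers were recovered from the steps of RPKM with the table's gene lengths (15520000 to 25050000 reads over the 9 libraries), which served limma-voom. In 3 simulated sets for the RIPmOVA comparison with 200 changed genes (11569 genes each), 99.5% were called and 2.93% of calls were false. The simulated differences were all larger than the fold limit and were put only in genes above a low mean level. The noise was independent between libraries and held no difference in background reads between genotypes. These shares therefore do not carry over to the calls in the real libraries.

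Same-numbered DKO-labelled and OT-II libraries came from the same chimera by the labels. Deviations of these pairs correlated at -0.079 in RIPmOVA and 0.006 in WT hosts, and a fit with the chimera as a block was run beside the main one. Named genes were the 12 lowest and 12 highest called protein-coding genes with non-overlapping libraries and a group mean of 5 RPKM or more, called members of the gene lists, the targeted genes with called genes within 5 Mb of Nr4a1, Nr4a3 and Ptprc, and up to 6 antigen-responsive genes with the smallest genotype difference. Gene lists and members were chosen with earlier results of these data known. Alternatives changed pseudocount, filter, scaling, samples, covariates, trend and call rule. Python 3.11.15 with pandas 2.3.3 and matplotlib 3.10.9 made tables and plots. Some items are not reported here.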

Additional observations from a re-analysis of the deposited data

Results flagged for a closer look

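Rln3 and Eno3 were the genes whose genotype difference itself differed between RIPmOVA and WT hosts past the limits of the test (limma interaction term, adjusted p = 0.036 for each). For Rln3 the log2 difference of DKO-labelled against OT-II cells was -4.85 in RIPmOVA hosts and -0.20 in WT hosts, an interaction of -4.65. For Eno3 it was -3.18 and -0.64, an interaction of -2.55. The 2 DKO-labelled RIPmOVA libraries were below both control libraries for each gene. With the chimera as a block, 0 genes were called for this term. No group had the 4 or more samples needed to look for a single library apart from its group.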

How the results depend on the processing

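Of 1072 values of named genes under the alternatives, 897 kept sign and side of the threshold, 148 kept sign but were no longer called, and 27 changed sign, all of genes not called at first. The number of genes called in RIPmOVA hosts (124; 59 higher, 65 lower) was within 1.5 times under pseudocounts of 0.1 and 1, no intensity trend, voom, and median-of-ratios rescaling over the genes tested (added after seeing the data). It was 81 with a filter of 5 RPKM (36 higher), 214 with median-of-ratios rescaling (149 lower), 201 with quantile normalization (137 lower), 220 with the compared libraries only (142 higher), 18 with the sensory covariate (1 higher, 17 lower) and 256 on adjusted p alone (105 higher, 151 lower). Without the filter 108 genes were higher. Leaving out 1 library gave 21 to 217 calls (7 to 130 higher, 14 to 92 lower): 21 without OT-II RIPmOVA replicate 1, 51 without replicate 2, 93 and 71 without DKO-labelled RIPmOVA replicates 1 and 2, and 211 and 217 without the OT-II WT replicates; where 1 sample was left it is assumed to vary like the others. In WT hosts 7 calls became 18 with median-of-ratios rescaling, 2 with the compared libraries only, 2 with the replicate block and 5 to 100 on leaving out a library (100 without OT-II WT replicate 2, and 11 and 12 without DKO-labelled RIPmOVA replicates 1 and 2). The 2 interaction calls became 0 with a pseudocount of 0.1, the 5 RPKM filter, the replicate block, the covariate or voom, 8 without the filter, 7 with median-of-ratios rescaling and 0 to 159 on leaving out a library (159 without OT-II WT replicate 2, 6 without DKO-labelled RIPmOVA replicate 2, 2 without replicate 1, and 0 without any of the other 6). In RIPmOVA hosts the replicate block gave 97 calls and ended those of Xcl1, Ncf1, Tnfsf8, Foxp3, Lrrc32, Olfr273 and 4930596I21Rik among named genes; it changed no other call of a named gene. The cause of these shifts was not tested. Sign changes with median-of-ratios rescaling were Hopx -0.20, Tbx21 -0.18, Cd82 -0.20, Il2rb -0.17, Lpar5 -0.14 and Nr4a1 -0.16; over the genes tested Hopx -0.02, Tbx21 -0.01 and Cd82 0; with quantile normalization Prnp 0.02 and Tbx21 -0.01; with the covariate Prnp 0.26 and Tbx21 -0.24. On leaving out a library their ranges were -0.75 to 0.79 (Hopx), -0.20 to 0.16 (Prnp), -0.38 to 0.44 (Tbx21), -0.10 to 0.17 (Cd82), -0.24 to 0.36 (Il2rb), -0.13 to 0.27 (Lpar5) and -0.06 to 0.21 (Nr4a1). With 2 libraries per genotype, genes of few reads and differences under 2-fold are least secure.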

Other observations

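Called genes outside the rule for named genes held further groups, which were picked here after their values were seen and carry no test as groups. Among higher genes, Ms4a4b (25.7 and 37.0 against 80.7 and 97.8 RPKM) and Ms4a6b (28.9 and 33.4 against 67.0 and 85.8 RPKM) are membrane proteins of the same family as Ms4a4c. Both were higher in the libraries of WT hosts than in antigen-exposed control cells, with Ms4a4b at 63.0 to 101 RPKM and Ms4a6b at 64.5 to 104 RPKM there. Tmie (7.53 and 8.09 against 17.5 and 26.6 RPKM) had the same order, at 24.5 to 32.5 RPKM in WT hosts. The transcripts of these 3 genes in DKO-labelled cells of RIPmOVA hosts thus lay at or nearer to the level without antigen. Tagap, a GTPase-activating protein of T cells (37.6 and 38.3 against 116 and 81.2 RPKM), and Lmna (16.2 and 13.1 against 43.4 and 36.8 RPKM) were instead above the level of WT hosts in each genotype. Genes of DNA replication were also among the higher calls at low levels: Prim1 (2.62 and 2.58 against 6.17 and 5.27 RPKM), Pole (0.466 and 0.41 against 2.4 and 1.51 RPKM), Dtl (0.55 and 0.253 against 2.9 and 1.77 RPKM) and Hells (1.91 and 1.19 against 4.4 and 3.21 RPKM). In WT hosts Hells and Pole had log2 differences of 1.23 each. With the chimera as a block the adjusted p in RIPmOVA hosts was 0.061 for Hells, 0.12 for Pole and 0.086 for Dtl.

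Among lower genes, Apoe (6.38 and 2.74 against 0.757 and 1.03 RPKM), H2-Ab1 (2.58 and 2.15 against 0.489 and 0.266 RPKM) and Ifitm1 (4.46 and 4.4 against 0.524 and 0.571 RPKM) are also known from macrophages and other antigen-presenting cells. Lyz2, a macrophage gene called only with the covariate for sensory receptor reads, was at 18.7 and 8.44 against 2.12 and 2.83 RPKM. Csf1r was at 0.4 and 0.043 against 0.443 and 0.578 RPKM and C1qa at 3.15 and 1.67 against 1.08 and 1.87 RPKM. With the chimera as a block the adjusted p was 0.083 for Apoe, 0.13 for H2-Ab1 and 0.13 for Ifitm1. The part of such cells in the lower genes was not tested. Gsto1 and Gsta4, glutathione transferases, fell from 16.7 and 15.1 to 3.07 and 1.57 RPKM and from 6.5 and 5.55 to 1.85 and 1.36 RPKM. Samsn1, an adaptor that dampens lymphocyte activation, fell from 34.2 and 29.1 to 12.1 and 10.03 RPKM, and Trat1, an adaptor of the T cell receptor complex, from 37.1 and 33.9 to 17.2 and 16.4 RPKM.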
